A study of Mus musculus with 2 samples.

Results

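Transcripts of the interferon response and of antigen presentation were examined in whole mammary glands of mice on the first day after forced weaning. The group is made of 37 genes, chosen by symbol alone: every probe set whose current or former gene symbol on the array platform was one of the 37 was taken. The rule uses no measured value, but the genes were listed with earlier results of these data known. They comprise 7 interferon regulatory factors, 5 genes of the interferon receptors and Stat2, 16 interferon-induced genes and 9 genes of antigen presentation, out of 18193 named genes on the array. In all, 63 probe sets carried 1 of these symbols and no other, out of 45037 probe sets that are not controls. For Isg15, a ubiquitin-like interferon-induced protein, the array had only a probe set that also carries a second symbol, so no value is given for it and 36 of the 37 genes had data.

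The 2 groups were glands of female CD1 mice at day 1 and at day 0 of involution, in which the milk-producing gland regresses once suckling ends. The CD1 stock is outbred, and the labels name no engineered allele. In both groups the litters had been set to 6 pups, and the pups were removed by force at day 10 of lactation, which was counted as day 0. The mice had been bought at 6 weeks of age, and their age at death was not given in the sources used here. Each day is a single Affymetrix mouse whole-genome array, a set of short oligonucleotide probes, hybridised with a pool of RNA from 5 mice. Every difference below is therefore between 2 arrays, has no replicate error and no test, and is given as a description only.

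Interferons are secreted proteins that cells release on sensing viral or bacterial material. Type I interferons bind the receptor of Ifnar1 and Ifnar2, and interferon gamma binds that of Ifngr1 and Ifngr2. The receptors act through Jak kinases on Stat proteins, and a complex that holds Stat2 and Irf9 binds the interferon-stimulated response element, ISRE, in promoters. Signals from the interferon gamma receptor act through another element, the gamma-activated site, GAS. Interferon regulatory factors recognise ISRE-like DNA and tune the response. Among the outputs are antiviral proteins and the machinery that displays peptides to T cells, on class I molecules in nearly all cells and on class II molecules mainly in dendritic cells, macrophages and B cells. In the involuting gland, dying milk-secreting cells are cleared and macrophages enter within days.

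Promoters of 5 members are shown because they carry the elements through which this pathway is known to act. Each line holds the 250 bases before the annotated transcription start, 5′ to 3′ on the strand of the gene, from RefSeq on GRCm38.p6. Capitals mark ISRE matches in the first 4 promoters and a GAS match in the last. The ISRE pattern searched was GAAA, any 2 bases and GAAA again, on both strands, so that on the opposite strand it reads TTTC, any 2 bases and TTTC. The GAS pattern was TTCNNNGAA, which reads the same on both strands.
Rsad2, chr12:26456453-26456702, minus strand: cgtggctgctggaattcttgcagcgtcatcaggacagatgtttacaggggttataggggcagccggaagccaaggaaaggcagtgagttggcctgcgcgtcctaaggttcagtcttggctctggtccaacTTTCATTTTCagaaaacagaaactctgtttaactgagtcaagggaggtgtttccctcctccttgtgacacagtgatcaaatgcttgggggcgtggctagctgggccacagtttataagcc
Gbp2, chr3:142620413-142620662, plus strand: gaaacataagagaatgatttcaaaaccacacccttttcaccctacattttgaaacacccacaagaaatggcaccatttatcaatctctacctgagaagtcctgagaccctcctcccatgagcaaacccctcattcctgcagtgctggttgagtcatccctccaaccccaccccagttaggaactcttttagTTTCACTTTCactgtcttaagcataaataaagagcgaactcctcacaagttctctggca
Ifit1, chr19:34640639-34640888, plus strand: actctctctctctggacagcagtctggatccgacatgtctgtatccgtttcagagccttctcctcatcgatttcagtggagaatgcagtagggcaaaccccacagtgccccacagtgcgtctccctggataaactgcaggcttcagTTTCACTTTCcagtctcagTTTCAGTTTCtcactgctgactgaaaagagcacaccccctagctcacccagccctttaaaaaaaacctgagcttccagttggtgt
Bst2, chr8:71537473-71537722, minus strand: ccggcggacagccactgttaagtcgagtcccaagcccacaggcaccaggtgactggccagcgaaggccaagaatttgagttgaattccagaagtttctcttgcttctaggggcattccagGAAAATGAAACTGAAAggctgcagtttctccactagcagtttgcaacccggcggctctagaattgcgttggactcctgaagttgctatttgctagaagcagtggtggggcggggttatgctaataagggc
Irf1, chr11:53769764-53770013, plus strand: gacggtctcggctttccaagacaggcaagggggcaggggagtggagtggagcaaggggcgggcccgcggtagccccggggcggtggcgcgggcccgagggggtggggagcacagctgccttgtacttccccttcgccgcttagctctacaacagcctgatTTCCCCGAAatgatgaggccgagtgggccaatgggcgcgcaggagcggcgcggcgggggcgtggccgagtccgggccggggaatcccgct
Rsad2 and Gbp2 each hold 1 ISRE match here, Ifit1 holds 2 separate ones and Bst2 2 that overlap. The Irf1 promoter holds the GAS pattern and no ISRE match.

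The values are MAS 5 signals, a brightness per probe set on a linear scale, and both arrays had a trimmed mean of 250. The day 1 array was dimmer at the low end. Medians over all probe sets were 60.1 at day 1 and 94.2 at day 0, and 44.5% of the probe sets on day 1 and 55.4% on day 0 were above 77.7, the median of both arrays together. That value served as a floor which replaced any lower signal, and a gene was called measured when its brighter array was above it. The ratio of 3′ to 5′ signal for beta-actin, a measure of RNA integrity, was 1.51 on day 1 and 2.5 on day 0, and for Gapdh 1.48 and 1.52. Spike-in hybridisation controls had a median log2 ratio of -1.16 over 15 probe sets, with single ones from -2.14 to -0.50. A scaling on their median is therefore uncertain, and the ratios after it are given at the end. Epithelial transcripts were plentiful on both arrays. Of 7 measured luminal markers, 6 had a ratio above 0 and 1 below it, with a median log2 ratio of 2.77. At least 2-fold higher were 5 (71.4%), against 10.4% of all measured genes. Krt18, a luminal keratin, had 18594.2 on day 1 and 2945.9 on day 0. Of the other luminal markers, Elf5 had 11038.6 on day 1 and 23257 on day 0, and Epcam 8857.3 on day 1 and 7265.4 on day 0.

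Most of these genes had similar signals on both arrays. Of the 36 genes with data, 35 were measured, and 29 of these exceeded the floor on each array. Of the 35, 3 (8.57%) were at least 2-fold higher on day 1, near the 10.4% of all 13239 measured genes. Those 3 were the receptor gene Ifngr2 and the interferon-induced genes Gbp2 and Rsad2. At least 2-fold lower was 1 member, Ifi35 (2.86%), against 13.3% of all measured genes. After the floor, the ratio was under 1.5-fold for 25 of the 35 members, against 52.4% of all measured genes. For Irf5, Ifit3, Mx1, Ifitm1 and Ciita among the 25, 1 array was under the floor, so the ratio is a bound and the difference may be larger. The median log2 ratio of the members was 0.14, against -0.12 for all measured genes, and 24 of the 35 lay above that median, as 50% of all genes do by construction. In such bulk tissue, fewer cells of a type and less RNA per cell cannot be told apart.

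**Figure D1:**
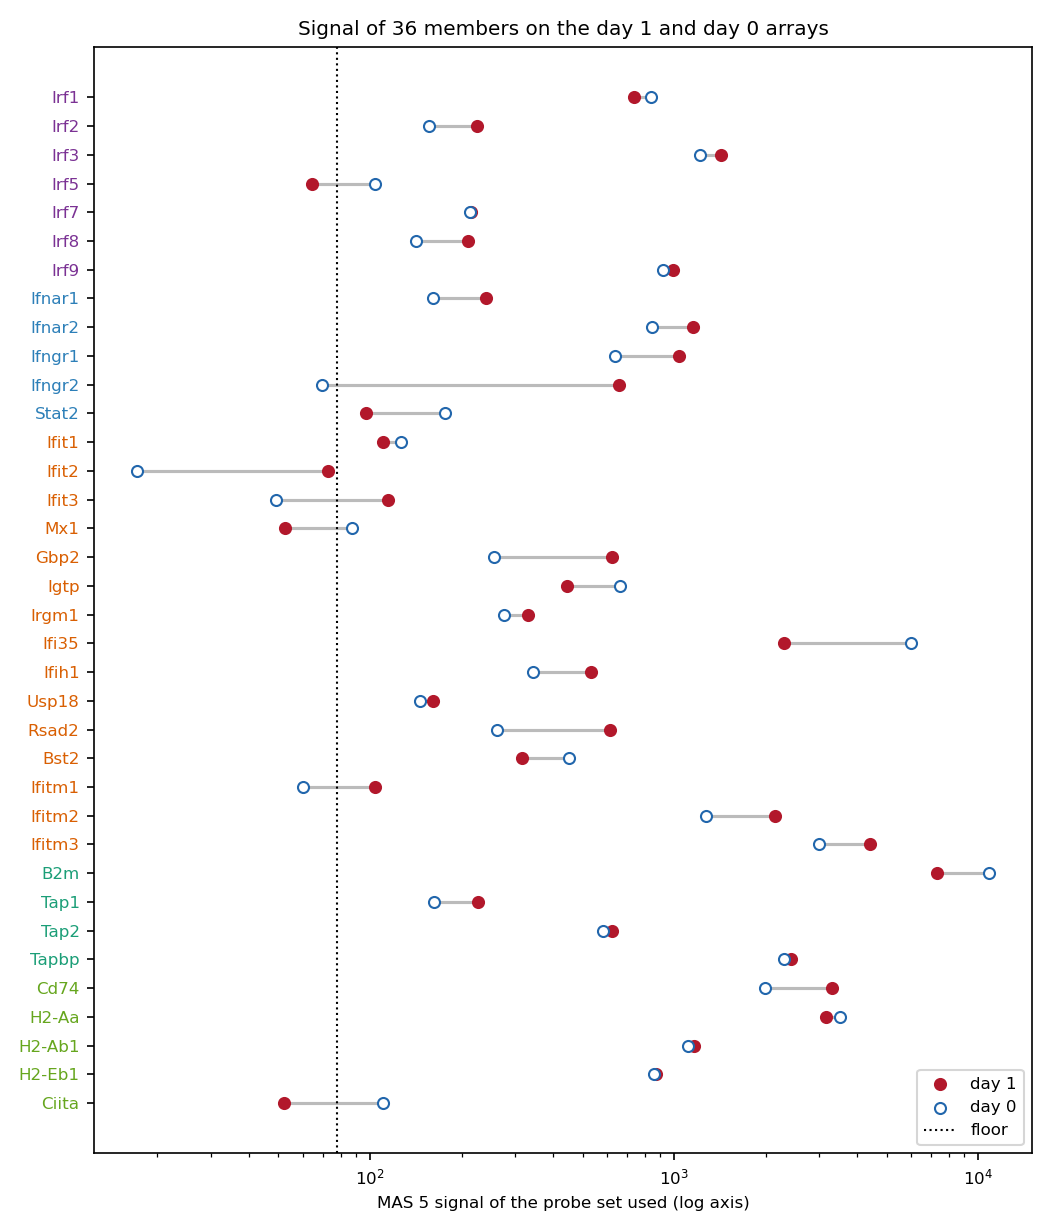
Signal of the probe set used for each of 36 members on the day 1 array (filled red) and the day 0 array (open blue), on a log axis, with the floor of 77.7 as a dotted line. Distances are to be read within a gene, since probe sets differ in brightness for equal RNA. Among genes above the floor on both arrays, the widest gaps are those of Ifi35, Gbp2 and Rsad2.

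The interferon regulatory factors showed no 2-fold difference. Of 7 members, all measured, 0 were at least 2-fold higher and 0 lower, and the median log2 ratio was 0.11. With 10.4% of all measured genes higher and 13.3% lower, a count of 0 among 7 genes does not set this group apart. Irf1, a factor induced by interferon gamma that switches on class I genes, had a signal of 738.1 on day 1, against 840.3 on day 0, a log2 ratio of -0.19. Irf7, which drives the second wave of type I interferon production, had 214.5 on day 1 and 213.4 on day 0. Its signals were nearly equal, with a log2 ratio of 0.01. Irf9, the DNA-binding partner of Stat2, had 992.2 on day 1 and 918.3 on day 0 (0.11 log2).

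Among the factors above the floor on both arrays, the largest ratios were those of Irf8 and Irf2. Irf8, a factor of macrophages, dendritic cells and B cells, had 210.2 on day 1 and 141.5 on day 0 (0.57 log2), and its other probe set, at the floor on day 0, gave at least 0.31 log2. Irf2, which competes with Irf1 at the same sites, had 224.2 on day 1 and 156.6 on day 0 (0.52 log2). The only Irf2 probe set bears a suffix of probe sets that can match several transcripts. The ratios of Irf8 and Irf2 are close to the pooled SD of 0.56 log2 between probe sets of the same gene. That SD is a measure of probe differences and not of differences between mice. Irf5, a factor of macrophages that acts below Toll-like receptors, had 64.3 on day 1, under the floor, and 103.6 on day 0, a log2 ratio of -0.42 as a bound. Its other probe set read 82.1 on day 1 and 81.4 on day 0.

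Irf3, which starts interferon beta transcription after sensing of nucleic acids, was covered by 4 probe sets that did not run the same way. The brightest had 1425.3 on day 1 and 1213.0 on day 0 (0.23 log2), and a second had 130.9 on day 1 and 124.2 on day 0 (0.08 log2). The other two had 124.2 on day 1 and 157.2 on day 0 (-0.34 log2), and 56.3 on day 1 and 126.0 on day 0 (a bound of -0.70 log2). No direction can be read for Irf3.

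Among the receptor genes, both chains of the type I receptor and the ligand-binding chain of the gamma receptor had higher signals on day 1, by less than 2-fold. Ifnar1 had 240.7 on day 1 and 161.0 on day 0 (0.58 log2), and its other probe set 101.7 on day 1 and 83.4 on day 0. Ifnar2 had 1153.4 on day 1 and 843.8 on day 0 (0.45 log2), and its other probe sets gave 0.23 log2 and at least 0.72 log2. Ifngr1 had 1034.0 on day 1 and 637.9 on day 0 (0.70 log2). These 3 genes kept a ratio above 0 in every setting tried in which they were measured.

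Ifngr2, the signalling chain of the gamma receptor, gave the largest ratio of the 35 measured genes at 1 probe set, and the opposite at the other. The brighter probe set had 656.7 on day 1 and 69.3, under the floor, on day 0, so it was at least 8.45-fold higher. The other had 233.6 on day 1 and 357.2 on day 0, a log2 ratio of -0.61. The call of Ifngr2 as higher thus rests on 1 of 2 probe sets, and the files do not say which part of the transcript each detects. Stat2, the partner of Irf9, had 97.1 on day 1 and 176.3 on day 0 (-0.86 log2), and its other probe set was under the floor on both days. Over the 5 genes of receptors and Stat2, the median log2 ratio was 0.58, with 1 at least 2-fold higher and 0 lower. The shares of all measured genes were 10.4% and 13.3%, and 5 genes are too few to tell from these.

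**Figure D2:**
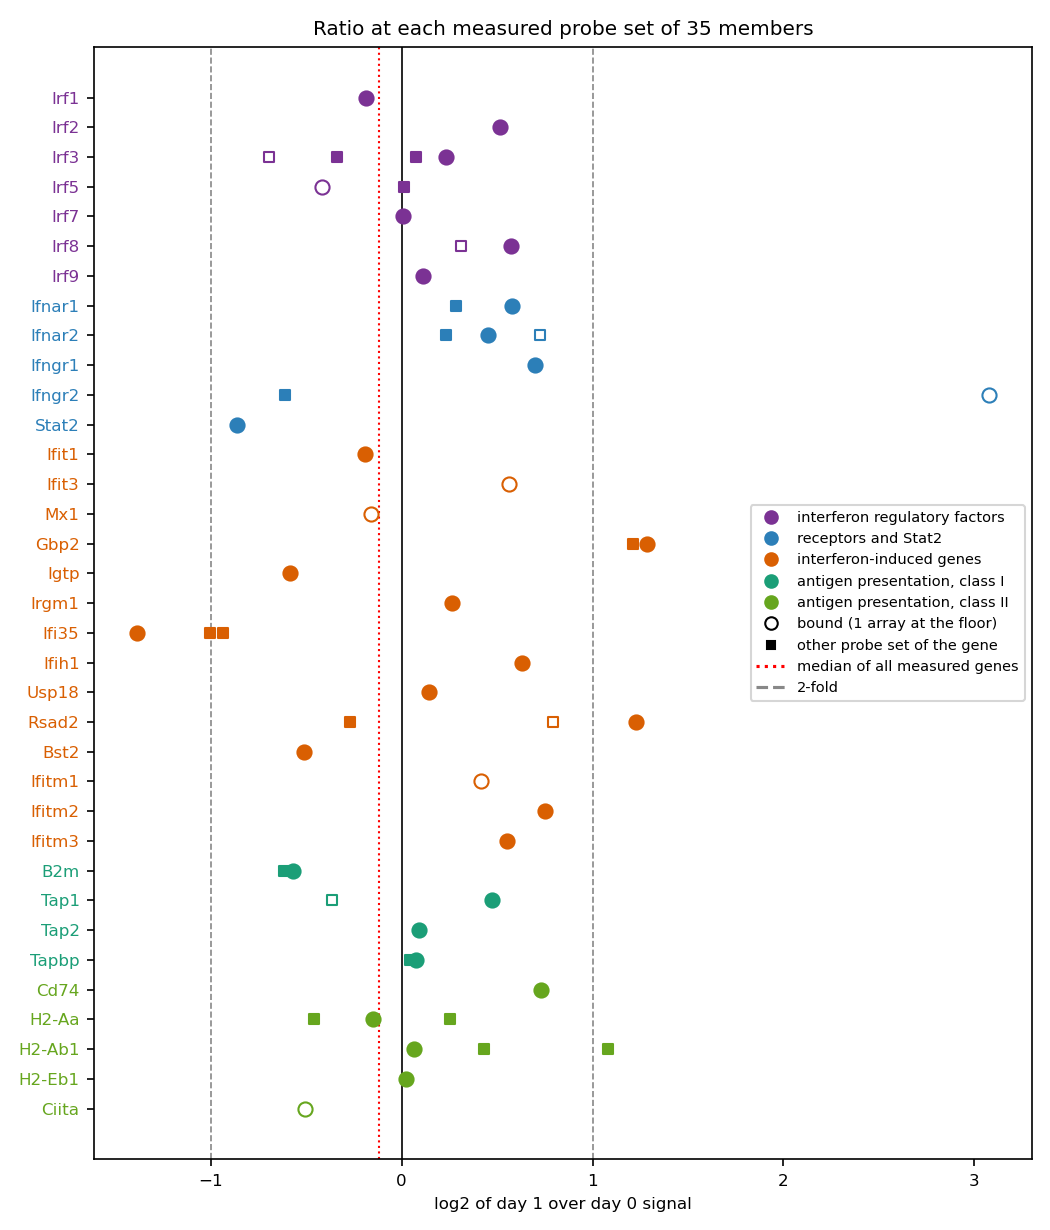
Log2 of day 1 over day 0 signal at every measured probe set of 35 members, with circles for the probe set used for a gene and squares for its others. Open symbols are bounds, the dashed lines mark 2-fold and the dotted line is the median of all measured genes (-0.12). Most symbols lie between the dashed lines, and the probe sets of Ifngr2 lie on both sides of 0.

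Of the 16 interferon-induced genes, 15 had data and 14 were measured. Among these, 2 were higher on day 1 by 2-fold or more, 1 was lower by as much and 11 differed by less. The shares, 14.3% and 7.14%, lie near the 10.4% and 13.3% of all measured genes. Gbp2, a guanylate-binding GTPase that attacks vacuoles of intracellular pathogens, had 624.9 on day 1 and 256.4 on day 0, which is 2.44-fold higher. Its second probe set ran the same way, with 524.9 on day 1 and 226.4 on day 0 (1.21 log2). That second one bears a suffix of probe sets that can match several transcripts. Gbp2 was at least 2-fold higher as deposited and in all 10 other scalings, floors and probe set rules, with log2 ratios of 1.23 to 2.45.

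Rsad2, or viperin, an enzyme that makes a chain-terminating nucleotide, had 614.7 on day 1 and 262.4 on day 0, which is 2.34-fold higher. Its other probe sets were dimmer. One had 131.0 on day 1 and 158.2 on day 0 (-0.27 log2), and the other 134.6 on day 1 and 17.2, under the floor, on day 0 (at least 0.79 log2). The mean over the 3 probe sets, with that bound taken as a value, was 0.58 log2. Ifi35, an interferon-inducible leucine zipper protein, had 2303.1 on day 1 and 6027.4 on day 0, which is 2.62-fold lower. Its other probe sets had 512.3 on day 1 and 1027.9 on day 0, and 472.7 on day 1 and 905.8 on day 0. All 3 were lower on day 1. The 2 brighter ones bear the suffix of probe sets that can match several transcripts, and the third, without it, was at -0.94 log2. Under hybridisation control scaling the probe set used for Ifi35 was at -0.23 log2.

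The Ifit genes and Mx1 had signals near or under the floor. Ifit1, which binds viral RNA ends, had 110.5 on day 1 and 126.2 on day 0 (-0.19 log2). Its relative Ifit2 was under the floor on both days, with 72.8 on day 1 and 17.1 on day 0. Ifit3, which acts with Ifit1, had 114.9 on day 1 and 48.9 on day 0 (at least 0.56 log2). Mx1, a dynamin-like antiviral GTPase, had 52.4 on day 1, under the floor, and 87.0 on day 0 (a bound of -0.16 log2). Usp18, which removes Isg15 from proteins and blocks the type I receptor, had 161.4 on day 1 and 146.0 on day 0 (0.14 log2). None of these 5 genes gave a 2-fold difference against the floor in the deposited scaling. With a floor at the 25th percentile, Ifit2 was at least 1.71 log2 and Ifit3 1.23 log2 higher, so what can be said of both depends on how dim signals are treated.

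Ifih1, the MDA5 sensor of long double-stranded RNA, had 532.6 on day 1 and 343.4 on day 0 (0.63 log2). Bst2, or tetherin, which holds budding virus at the cell surface, had 315.8 on day 1 and 450.5 on day 0 (-0.51 log2). The immunity-related GTPases, which are strongly induced by interferon gamma in mouse cells, had ratios on both sides of 0. Igtp had 442.8 on day 1 and 664.6 on day 0 (-0.59 log2), and Irgm1 had 331.8 on day 1 and 276.4 on day 0 (0.26 log2).

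The Ifitm genes encode small membrane proteins that hinder virus entry. Ifitm3 had 4393.0 on day 1 and 2991.7 on day 0 (0.55 log2). Ifitm2 had 2142.2 on day 1 and 1273.7 on day 0 (0.75 log2). Ifitm1 was near the floor, with 103.8 on day 1 and 60.3, under the floor, on day 0 (at least 0.42 log2). All 3 had higher signals on day 1 in the deposited scaling, by less than 2-fold for Ifitm2 and Ifitm3. For Ifitm1 the ratio is a lower bound. The ratios of all 3 stayed above 0 in every setting in which they were measured. Ifitm2 and Ifitm3 are close paralogs, and the files do not say how far their probes tell them apart. The median log2 ratio of the 14 measured interferon-induced genes was 0.34.

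No antigen presentation gene reached a 2-fold difference against the floor of 77.7. All 9 were measured, and 0 were at least 2-fold higher or lower, with a median log2 ratio of 0.07. Of all measured genes, 10.4% were higher and 13.3% lower by as much, so a count of 0 among 9 genes does not set them apart. On the class I side, B2m, the invariant light chain, had 7337.7 on day 1 and 10867.6 on day 0 (-0.57 log2), and its other probe set had 5473.8 on day 1 and 8394.2 on day 0 (-0.62 log2). Both B2m probe sets were lower on day 1. Under hybridisation control scaling B2m was at 0.60 log2, so its direction depends on the scaling. The peptide transporter genes were Tap1, with 225.8 on day 1 and 162.8 on day 0 (0.47 log2), and Tap2, with 623.0 on day 1 and 585.1 on day 0 (0.09 log2). A dim probe set of Tap1 had 7.6 on day 1 and 100.2 on day 0 (a bound of -0.37 log2). Tapbp, or tapasin, which bridges the transporter and empty class I molecules, had 2416.8 on day 1 and 2298.0 on day 0 (0.07 log2).

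On the class II side, Cd74, the invariant chain that guards the peptide groove, had 3305.9 on day 1 and 1995.7 on day 0, a log2 ratio of 0.73, the largest of the antigen presentation genes above the floor on both days. The class II chains it accompanies showed smaller ratios at the probe sets used. H2-Eb1 had 872.7 on day 1 and 858.7 on day 0 (0.02 log2), and H2-Ab1 1161.1 on day 1 and 1109.2 on day 0 (0.07 log2). H2-Aa had 3154.9 on day 1 and 3501.9 on day 0 (-0.15 log2). Probe sets of these chains spread widely. The other 2 measured ones of H2-Ab1 were at 0.43 and 1.08 log2, and those of H2-Aa at 0.25 and -0.46 log2. All of these, and the one used for H2-Aa, bear a suffix of probe sets that can match several transcripts. Ciita, the master regulator of class II transcription, had 52.2 on day 1, under the floor, and 110.4 on day 0 (a bound of -0.51 log2), and its other 2 probe sets were under the floor on both days. With a floor at the 25th percentile Ciita was at -1.08 log2, so its size too depends on how dim signals are treated.

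Markers of the cells that bear class II molecules did not move as one. Over all measured genes, 10.4% were at least 2-fold higher and 13.3% lower. Of 14 macrophage markers, 13 were measured, 4 (30.8%) at least 2-fold higher and 1 (7.69%) lower. The summed signal was 38338.5 on day 1 and 11358.3 on day 0. On day 1 most of that sum came from Cd14, an endotoxin co-receptor also made by mammary epithelium, with 29010.6 on day 1 and 3816.8 on day 0. Csf1r, the receptor on which macrophages depend, had 1840.9 on day 1 and 1399.0 on day 0 (0.40 log2), with other probe sets down to -1.12 log2. Adgre1, the F4/80 antigen of macrophages, had 375.2 on day 1 and 665.6 on day 0. Beside Cd14, the markers at least 2-fold higher were Cd68 (1.55 log2), Lyz2 (1.15) and Mrc1 (1.01), and the lower one was C1qa (-1.23). Of 10 dendritic cell markers, 6 were measured, 0 were at least 2-fold higher and 2 (33.3%) lower. Signals of this list summed to 677.4 on day 1 and 831.0 on day 0. Flt3, Xcr1 and Siglech were under the floor on both arrays. Above it on both were Itgax, with 186.6 on day 1 and 161.8 on day 0, Zbtb46, with 93.6 on day 1 and 198.7 on day 0, and Batf3, with 84.6 on day 1 and 177.1 on day 0. Of 10 B and plasma cell markers, 9 were measured, 4 at least 2-fold higher and 0 lower, with a summed signal of 11290.2 on day 1 and 10118.1 on day 0. Most of that sum came from Jchain, with 8404.1 on day 1 and 8269.1 on day 0. Ratios were above 0 for 6 of the 9 measured markers and below 0 for 3. The B cell marker Ms4a1 had 187.3 on day 1 and 82.7 on day 0, and Cd22 had 208.4 on day 1 and 328 on day 0. Of 11 T and NK cell markers, 6 were measured, 2 (33.3%) higher and 3 (50%) lower by at least 2-fold. The sum was 999.7 on day 1 and 1020.4 on day 0. Of 8 luminal epithelial markers, 7 were measured, 5 (71.4%) higher and 1 (14.3%) lower by at least 2-fold. The sum was 74600.2 on day 1 and 38125.5 on day 0. Of 8 endothelial markers, 7 were measured, 0 higher and 1 (14.3%) lower by at least 2-fold, with sums of 2143.4 on day 1 and 2542.8 on day 0. The part of these cell types in the ratios of Cd74 and the other members was not tested.

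The wider pathway was looked at through longer lists. Of 55 other interferon-induced genes, 43 were measured, 7 (16.3%) at least 2-fold higher and 6 (14.0%) lower, near the 10.4% and 13.3% of all measured genes. Its largest ratios were at the lower end. Isg20, an exonuclease, had 593.9 on day 1 and 4538.6 on day 0, 7.64-fold lower. Cmpk2, a mitochondrial nucleotide kinase, had 205.9 on day 1 and 1469.2 on day 0, 7.14-fold lower, and its other probe set was at -1.80 log2. Iigp1, another immunity-related GTPase, had 523.4 on day 1 and 2543.4 on day 0, 4.86-fold lower, and its other probe set was at -2.0 log2. The largest ratio at the higher end was that of Slfn2, a Schlafen family gene, with 326.0 on day 1 and 88.5 on day 0, 3.68-fold higher. Cxcl10, a chemokine that responds strongly to interferon, was under the floor on both arrays, with 29.3 on day 1 and 73.3 on day 0.

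Of 32 other antigen presentation genes, 25 were measured, 0 at least 2-fold higher and 4 (16%) lower. Those 4 were dim genes. H2-Eb2, a class II gene, had 30.4 on day 1 and 276.8 on day 0 (at least 3.56-fold lower). The T cell costimulatory genes Cd40 and Cd80 had 45.8 and 35.6 on day 1, and 171.2 and 168.8 on day 0. Rfxank, part of the class II promoter complex, had 85.1 on day 1 and 175.0 on day 0, with another probe set at 0.67 log2. The class I heavy chain genes were under 2-fold, with 7760.4 on day 1 and 8866.2 on day 0 for H2-K1 (-0.19 log2) and 4091.9 on day 1 and 3605.3 on day 0 for H2-D1 (0.18 log2). Probe sets of H2-K1 ranged from -1.84 to 0.06 log2 and those of H2-D1 from -0.55 to 1.40, and these closely related genes may share probes. The immunoproteasome genes Psmb8 and Psmb9 had log2 ratios of 0.65 and -0.05. Nlrc5, the class I transactivator, had 126.0 on day 1 and 61.8, under the floor, on day 0 (at least 0.70 log2).

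Among 17 further genes of Jak-Stat signalling, related factors and the type III receptor, 14 were measured, 5 (35.7%) at least 2-fold higher and 1 (7.14%) lower, with a median log2 ratio of 0.61. The chains of the type III receptor, Ifnlr1 and Il10rb, are 2 of the 5 higher genes. The 4 with the largest ratios were Socs3 (9.40-fold higher), Ifnlr1 (at least 5.06-fold), Stat3 (4.07-fold) and Ptpn2 (2.62-fold). Other probe sets of Stat3 ranged down to 0.54 log2 and those of Ptpn2 down to -0.06 log2. Socs3 and Stat3 belong above all to the response to interleukin 6 type cytokines, Ifnlr1 encodes the receptor of type III interferons, and Ptpn2 is a phosphatase of Jak and Stat proteins. Ifnlr1 had 392.9 on day 1 and 75.8, under the floor, on day 0, at its single probe set. Of the kinases, Jak2 had 930.2 on day 1 and 566.2 on day 0 (0.72 log2) and Tyk2 had 287.2 on day 1 and 312.0 on day 0 (-0.12 log2). Jak1 had 2153.0 on day 1 and 1516.2 on day 0 (0.51 log2), with another probe set at -0.60 log2. Socs1, the inhibitor most tied to interferon gamma, was under the floor on both arrays, with 13.2 on day 1 and 61 on day 0.

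Of 15 sensors and adaptors, 12 were measured, 2 (16.7%) at least 2-fold higher and 1 (8.33%) lower, near the shares of all measured genes. Sting1, the adaptor of cytosolic DNA sensing, had 480.2 on day 1 and 50.5, under the floor, on day 0, at least 6.18-fold higher, and its second probe set gave 1.63 log2. Myd88, the adaptor of most Toll-like receptors, had 1564.2 on day 1 and 602.3 on day 0, 2.60-fold higher. Mavs, the adaptor through which Ifih1 signals, had 469.4 on day 1 and 947.1 on day 0, 2.02-fold lower, and Tlr4, the endotoxin receptor, had 404.7 on day 1 and 215.3 on day 0 (0.91 log2). Of 13 interferon genes, 8 had data and 0 exceeded the floor on each of the 2 days. Interferon beta, Ifnb1, had 21.5 on day 1 and 136.6 on day 0, and interferon gamma, Ifng, had 1.5 on day 1 and 71.1 on day 0. All 8 interferon genes had lower signals on day 1, the array that was dimmer at the low end. Of the 4 measured, only Ifna1 passed 2-fold, with 76.0 on day 1 and 279.8 on day 0. Ifna2 had 2.7 on day 1 and 99.3 on day 0, and Ifna5 had 20.5 on day 1 and 98.2 on day 0.

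**Figure D3:**
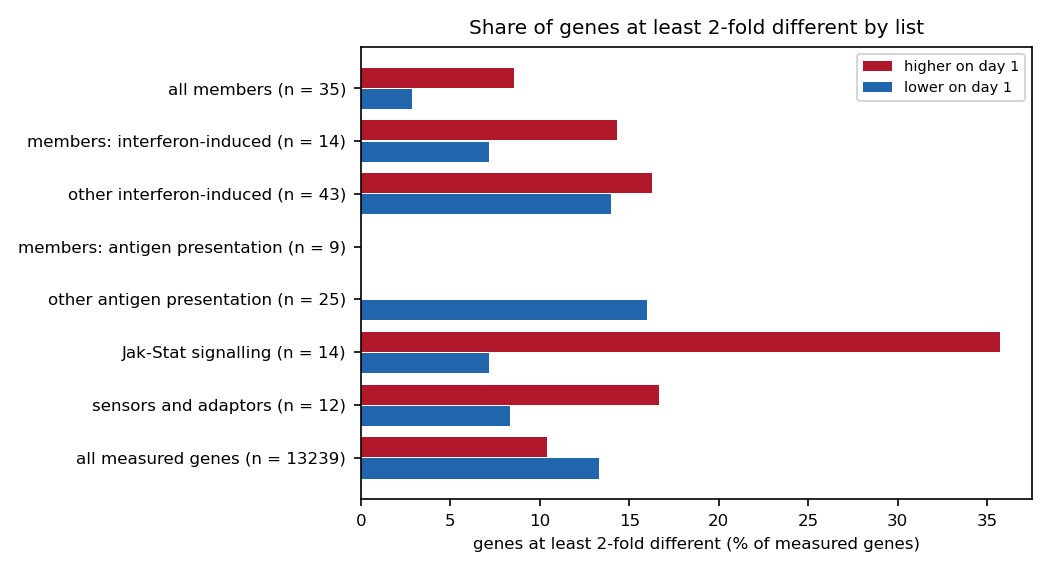
Percentage of measured genes at least 2-fold higher (red) or lower (blue) on day 1 in the members, in the longer lists around them and over all 13239 measured genes, with the number measured beside each name. The antigen presentation members have no bar, and the Jak-Stat list has the longest one, at 35.7% higher.

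The promoters were then compared with all promoters in the reference. RefSeq windows of 250 bases before to 50 after the start were at hand for 31 of the 37 members and for 27025 genes in all. The ISRE pattern occurred in 14 of the 31 members (45.2%), against 3.99% of all genes. By role it occurred in 11 of 14 interferon-induced genes, and in 1 each of the regulatory factors (Irf2), the receptors and Stat2 (Stat2) and the antigen presentation genes (B2m). In Isg15, Irgm1 and Bst2 the ISRE matches overlap one another. The GAS pattern occurred in 10 of 31 members (32.3%), against 9.55% of all genes, among them Irf1 and Irf8, and in Bst2 and Ifitm3 it shares bases with an ISRE match. A match is a run of letters and not a shown binding site, and the absence of a match says only that these letters are not in the window.

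Holding an ISRE pattern did not go with 1 direction of change. Of the 14 members with it, 13 were measured, 2 were at least 2-fold higher and 0 lower, and their log2 ratios ran from -0.86 (Stat2) to 1.29 (Gbp2). Of the promoters printed above, those of Rsad2 and Gbp2 belong to genes at least 2-fold higher at the probe set used, and those of Ifit1 and Bst2, with more matches, to genes at -0.19 and -0.51 log2. Over the whole array, 392 measured genes with the ISRE pattern had a median log2 ratio of -0.16, with 8.16% at least 2-fold higher and 15.6% lower. The 10231 measured genes whose windows lack it had a median of -0.11, with 10.4% higher and 12.7% lower.

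**Figure D4:**
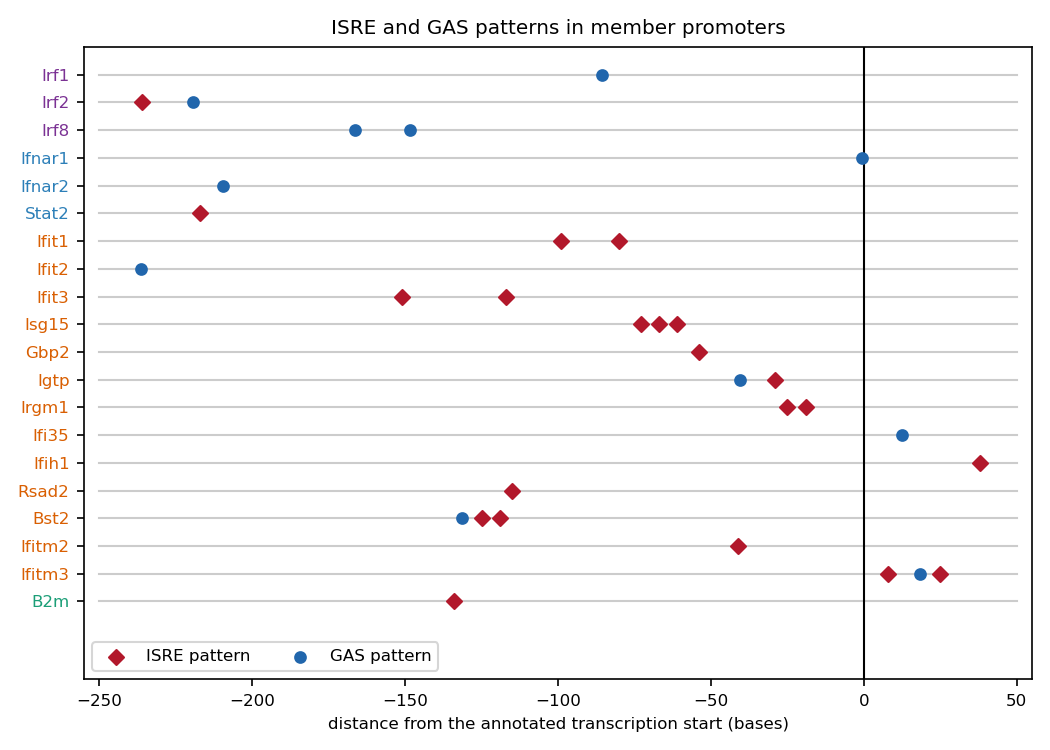
Position of ISRE (red diamonds) and GAS (blue circles) pattern matches, in bases from the annotated transcription start, in the promoter windows of the 20 members that hold at least 1. Symbols stand at the middle of a match and grey lines span each window. ISRE matches of interferon-induced genes begin at most 156 bases before the start, and those of Ifih1 and Ifitm3 lie after it.

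The scaling of the arrays set the level of all ratios. Medians of the 4 groups were 0.11 for the regulatory factors, 0.58 for receptors and Stat2, 0.34 for interferon-induced genes and 0.07 for antigen presentation as deposited. Scaling on hybridisation controls raised the median of all measured genes by 1.09, and those of the 4 groups to 1.27, 1.74, 1.22 and 1.23. Relative to all genes, the receptors and Stat2 stood 0.57 to 0.73 log2 higher and the interferon-induced genes 0.41 to 0.48 higher, as deposited and in the 4 scalings other than that on hybridisation controls, where the values were 0.77 and 0.25. The antigen presentation genes stood 0.18 log2 above all genes as deposited, but at -0.08 and -0.07 relative to them after quantile normalization and loess. Of the 35 measured members, 19 kept the sign of their ratio in every setting in which they were measured, among them Gbp2, Rsad2, Ifngr2, Ifi35 and Cd74. For Ifngr2 and Rsad2, all settings but the mean of all probe sets used the same probe set. Their probe sets at -0.61 and -0.27 log2 therefore entered that mean alone, and a kept sign does not settle their direction. In 7, namely Irf5, Stat2, Mx1, Igtp, Bst2, B2m and Ciita, the sign turned under hybridisation control scaling and in no other setting. In the other 9, all with small ratios, the sign turned in some other setting, whether or not it turned under hybridisation control scaling.

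**Figure D5:**
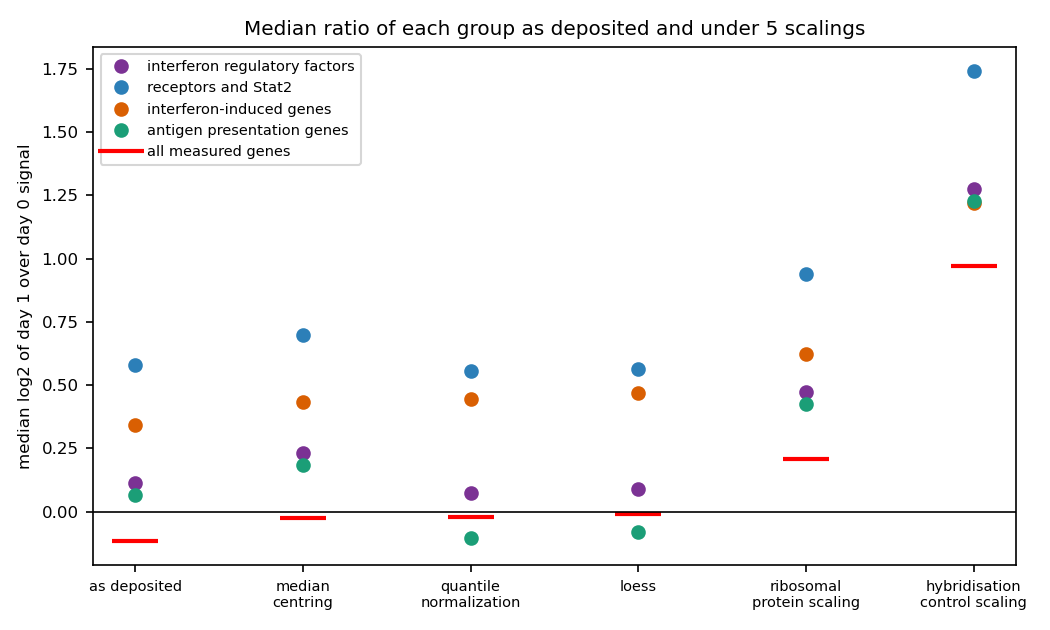
Median log2 of day 1 over day 0 signal of the 4 groups (circles) and of all measured genes (red bars), as deposited and under 5 scalings. The receptors and Stat2 are the topmost circle in each column, and the antigen presentation genes fall below the red bar after quantile normalization and loess.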

How the data were processed

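Gene expression was measured on 2 Affymetrix arrays, 1 of pooled RNA of 5 mice for each day. The authors deposited signal intensity values made with the statistical algorithms of Microarray Suite 5.0, per the labels, on a linear scale, with a trimmed mean of 250 on both arrays when 2% is trimmed at each end. For the scaling target, nothing was given in the sources used here. A scaling error by a single factor moves all ratios together, except where a signal is at the floor. An error that depends on brightness does not. Under quantile normalization, Irf1 went from -0.19 to -0.32 log2 and Ifit1 from -0.19 to 0.24 log2.

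Symbols were those of the platform annotation, updated through the gene identifier to RefSeq (GRCm38.p6). Of 45037 probe sets, 34945 had a single symbol, and 932 with several symbols were left out. Signals under 77.7 were raised to it, the ratio was log2 of day 1 over day 0, and a gene was represented by its brightest probe set, by the mean of both arrays. With 1 array in a group there is no test, and precision is limited by having so few arrays. Ratios of different probe sets for 1 gene had a pooled SD of 0.56 log2 (3943 genes). A gene's probe sets were said to disagree when a further measured one was beyond 0.5 log2 in the opposite direction, as for Irf3 and Ifngr2 among the members.

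Named genes were all members, the 4 largest ratios of each longer pathway list and a short fixed set. Of the marker lists, up to 3 defining markers were to be named. Further macrophage and dendritic cell markers, and Jchain, Cd22, Elf5 and Epcam, were named after their values were seen. The members and lists were chosen with earlier results of these data known. Calculations used Python 3.11.15, numpy 2.4.6, pandas 2.3.3 and statsmodels 0.14.6, and the ratio and probe set steps were checked on simulated signals. Alternatives were 5 scalings, 2 other floors, no floor with a pseudocount of 16, 2 probe set rules and a 1.5-fold threshold. In the scalings the probe set of each gene was held.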

Additional observations from a re-analysis of the deposited data

How the results depend on the processing

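As deposited, 3 members were at least 2-fold higher and 1 lower. The count of members at least 2-fold higher was 6 under ribosomal protein scaling and 25 under hybridisation control scaling. It was 5 with a floor at the 25th percentile and 7 at a threshold of 1.5-fold. Over all measured genes, the share higher was 10.4% as deposited and, in the same order, 18.63%, 48.67%, 12.04% and 20.39%. The count of members lower was 0 under hybridisation control scaling and 2 with a floor at the 25th percentile. It was 0 without shared probe sets and 3 at 1.5-fold. The share of all measured genes lower was 13.3% as deposited and, in the same order, 2.28%, 26.02%, 13.92% and 27.21%. Hybridisation control scaling gave median log2 ratios of 1.27 for the regulatory factors, 1.74 for receptors and Stat2, 1.22 for interferon-induced genes and 1.23 for antigen presentation genes. Of all genes called at 2-fold, 43.8% were higher as deposited, 69.2% under ribosomal protein and 95.5% under hybridisation control scaling. Of 339 single-gene values under the alternatives, 297 moved by less than the pooled SD of 0.56 log2 between probe sets and 42 by more, 34 of these under hybridisation control scaling. Ifit2, with both signals at the floor as deposited, was taken as 0 there. No member called as deposited changed direction, although Ifngr2 and Rsad2 each had a probe set of the opposite sign. The cause of these differences was not tested. With a floor at the 75th percentile 22 members could be measured, so dim genes such as Ifit1 and Irf7 have no value there. No paired analysis was possible because each day has 1 array.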

Other observations

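Genes that lie next to each other in the RefSeq annotation of GRCm38.p6 were set side by side, by a rule chosen after the values were seen: protein-coding genes within 3 places of a member that was at least 2-fold different, or between members that lie within 3 places of each other. Cmpk2 is the direct neighbour of Rsad2, and both are known as interferon-induced genes, yet the ratios were -2.84 log2 for Cmpk2 and 1.23 log2 for Rsad2 at the probe sets used. The dimmer probe sets of Rsad2 were at -0.27 and at least 0.79 log2, and that of Cmpk2 at -1.80. Next to Ifi35 (-1.39 log2), the ribosomal protein gene Rpl27 was at -0.06 and Vat1, on the other side, at 1.55. Around Gbp2 (1.29 log2), the guanylate-binding protein genes Gbp2b, Gbp3 and Gbp7 were at -0.15 as a bound, -0.35 and 0.17, and Kyat3, on the other side, at -1.63.

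On chromosome 16, Ifnar2, Il10rb, Ifnar1 and Ifngr2 follow one another. Il10rb encodes a chain of the interleukin 10 and type III interferon receptors. It had 1047.1 on day 1 and 522.7 on day 0, a log2 ratio of 1.00. Its partner chain Ifnlr1, which lies elsewhere, was at least 2.34 log2. The next genes outward, Tmem50b, Dnajc28 and Gart, were at -0.10, -0.50 and -0.70 log2. Among the immunity-related GTPases, the order of the ratios from low to high was Iigp1 (-2.28 log2), Irgm2 (-0.95), Igtp (-0.59), Ifi47 (-0.25) and Irgm1 (0.26), and all 5 exceeded the floor on each array. Irgm2 and Ifi47 were named after their values were seen. Parp9, Dtx3l and Parp14, which encode partners in interferon-linked ADP-ribosylation and were likewise named after their values were seen, were at 1.26, 0.38 and 0.56 log2.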
